A study of Mus musculus with 9 samples.

Results

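The comparison of untreated diabetic with normal bone covered 6 tibia libraries of the 9 in the series, 3 from T1D mice and 3 from NGT mice, chosen by their labelled disease and treatment. All were female C57BL/6J mice, which were young adults when the experiment began. The T1D mice were made diabetic by a single injection of streptozotocin (STZ), which destroys beta cells of the pancreatic islets, and then received daily saline. The NGT mice, with normal glucose tolerance, had received the citrate vehicle in place of STZ and are labelled with the same saline treatment. STZ diabetes is chemical and lacks the autoimmunity of human type 1 diabetes. Each library came from 1 mouse. The 3 Lira mice, diabetic mice given liraglutide, entered only the choice of tested genes, the scaling and the estimate of the spread between mice.

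The tibia holds bone cells, marrow and cartilage, and the authors cleaned the bones of muscle and connective tissue before RNA was extracted. Bone is built by osteoblasts, which lay down collagen-rich matrix, and is resorbed by osteoclasts, large cells of the macrophage lineage that secrete acid and proteases. Insulin drives glucose uptake and protein synthesis in many tissues, whereas low insulin shifts muscle and liver toward fatty acid and ketone use. Ribosomal proteins, together with ribosomal RNA, form the machinery that translates mRNA, and the mitochondrial respiratory chain and ATP synthase use the electrons released by the tricarboxylic acid (TCA) cycle and by fatty acid oxidation to make ATP.

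The library totals were 13086373 to 14486754 counts in NGT mice and 14765784 to 16528394 counts in T1D mice, and 13960 of 18272 genes were tested. Where 0 reads were counted, the level could still be as high as 3 counts, which is 0.163 to 0.237 CPM in these libraries (counts scaled to a library of 1000000), counting error alone considered. Skeletal muscle transcripts were abundant in spite of the cleaning. A list of 35 muscle genes took 21.1%, 28.0% and 30.4% of the counts of NGT mice 1, 2 and 3 and 17.7%, 26.6% and 29.9% in the T1D mice of the same numbers. *Dmp1*, a mineralization protein of osteocytes (chosen after its values were seen), was at 0.464 to 8.00 CPM in the 6 libraries, and of 17 tested osteocyte list genes 15 were higher in T1D (9 without T1D mouse 1). Of the 17, 7 (41.2%, against 19.2% of all genes) were higher in all 3 pairs of mice with the same number. T1D mouse 1 stood apart from the rest, since 570 genes of at least 5 CPM exceeded 2 times their level in each of the other 5 libraries, against 4 to 60 genes in the others. In bulk samples, fewer cells of a type and less RNA per cell cannot be told apart.

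Across all genes no difference passed the adjusted test. With the study's thresholds, a fold change over 2 together with an adjusted p-value under 0.05, 0 of 13960 genes (percent called 0) were differentially expressed in edgeR's quasi-likelihood test, and the lowest adjusted p-value was 0.977. Before adjustment, 329 genes (2.36%) with higher and 223 genes (1.6%) with lower counts in T1D had p-values under 0.05. DESeq2 gave 697 genes at the same unadjusted level, and 1 gene, *Vps13a*, had an adjusted p-value under 0.05 (0.00593), but its fold change was below 2. The values of all 3 T1D mice lay above those of all 3 NGT mice for 492 genes (3.52%) and below them for 709 genes (5.08%). "Higher" and "lower" below therefore describe measured levels, and no gene is called changed unless a test is named.

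The mice were also compared within equal replicate numbers, because deviations from the group means correlated, in these same counts, between the NGT and the T1D mouse of equal number. In all 3 numbers 2683 genes (19.2%) were higher and 2649 genes (19%) were lower in the T1D mouse. With the number entered as a block in edgeR, 1136 genes (8.14%) were higher and 816 genes (5.85%) were lower at an unadjusted p-value under 0.05, again with 0 differentially expressed genes and a lowest adjusted p-value of 0.232. Leaving out number 2 gave 7 differentially expressed genes, namely 5 genes of slow muscle fibres such as the slow troponin I *Tnni1*, the collagenase *Mmp13* and the chemokine *Ccl8*, and leaving out number 1 or 3 gave 0. Neither the labels nor the paper say what an equal number stands for.

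The most uniform difference was in the cytosolic ribosomal proteins, nearly all of which were higher in T1D tibia. Of 81 genes whose symbols follow the ribosomal protein pattern, 78 were tested and 77 had a positive log2 fold change. The groups did not overlap for 69 of them (88.5%), always with T1D higher, whereas 3.52% of all tested genes showed this pattern. Before adjustment, 62 genes had p-values under 0.05 in the 9-library fit, all higher in T1D (2.36% of all genes), and within equal numbers 73 higher genes (8.14% of all genes) and 1 lower gene did. The median log2 fold change was 0.53, beside 0.02 over all tested genes. No single ribosomal protein gene passed the adjusted test.

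Many mRNAs of ribosomal proteins begin with a C followed by a run of pyrimidines, a feature through which their translation is known to be regulated. Sequences around the annotated starts in RefSeq (GRCm38.p6) were found for 58 of the 78 genes and are shown for 7 of them, 6 that were higher and 1 that was lower. Each line runs 5′ to 3′ from 20 bases before the start to 20 bases from the start onward, and capitals mark a C at the start followed by 4 bases that are each C or T. The first 4 were taken for low p-values among genes with this tract, and Rps25 and Rps28 for low p-values among genes without it. The share with the tract among these 6 was therefore set by the choice. Rpl3l is the 1 member with a negative log2 fold change, shown at 1 of its 2 starts.
Rps18 (chr17:33955646-33955685, minus strand): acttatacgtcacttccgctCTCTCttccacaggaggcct
Rps15a (chr7:118116128-118116167, minus strand): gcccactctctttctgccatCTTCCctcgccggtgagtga
Rps27 (chr3:90213629-90213668, minus strand): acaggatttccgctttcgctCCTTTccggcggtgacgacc
Rpl35 (chr2:39005112-39005151, minus strand): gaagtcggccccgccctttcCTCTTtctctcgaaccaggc
Rps25 (chr9:44407694-44407733, plus strand): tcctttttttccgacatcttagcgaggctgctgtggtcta
Rps28 (chr17:33824543-33824582, minus strand): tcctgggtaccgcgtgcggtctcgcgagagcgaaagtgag
Rpl3l (chr17:24727806-24727845, plus strand): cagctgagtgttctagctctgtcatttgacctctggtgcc
The tract stood exactly at an annotated start, on the transcript's strand only, in 13 of the 58 ribosomal protein genes (22.4%), in 4 of 75 oxidative phosphorylation genes (5.33%) and in 328 of 11033 tested genes with a start sequence (2.97%). A true start may lie some bases away from the annotated one, so that absence of the tract at this position says only that these letters are not there.

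*Rps25*, a protein of the small subunit, was counted at 117, 123.3 and 143 CPM in NGT mice 1, 2 and 3 and at 173, 192 and 204 CPM in the T1D mice of the same numbers. Every T1D value exceeded every NGT value, and the log2 fold change was 0.57 ± 0.15 (SE, unadjusted p = 0.0042 in edgeR). *Rps28*, also of the small subunit, was at 50.1, 42.3 and 45.8 CPM in NGT and 78.7, 62.3 and 91.0 CPM in T1D mice, a log2 fold change of 0.75 ± 0.20 (SE). The groups were again separate. *Rps18* was at 108, 109 and 122.5 CPM in NGT and 168, 156 and 182 CPM in T1D mice, with a log2 fold change of 0.57 ± 0.16 (SE). *Rpl12*, a protein of the large subunit that was chosen after its values were seen, was at 201, 192 and 243 CPM in NGT and 299, 359 and 498 CPM in T1D mice. Its log2 fold change was 0.86 ± 0.24 (SE), the largest in the list. The most counted members behaved alike. *Rps2* was at 648, 681 and 811 CPM in NGT and 849, 831 and 1129 CPM in T1D mice, and *Rplp0*, a protein of the ribosomal stalk, at 598, 658 and 692 CPM against 789, 913 and 1270 CPM. Their log2 fold changes were 0.39 ± 0.21 and 0.61 ± 0.23 (SE).

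Both ribosomal subunits showed the difference. All 31 tested proteins of the small subunit were higher, with a median log2 fold change of 0.55 and 28 whose groups did not overlap. Of 47 genes of the large subunit, 46 were higher, with a median of 0.52 and 41 without overlap. The exception was *Rpl3l*, a paralog of *Rpl3* found mainly in striated muscle (chosen after its values were seen), at 316, 470 and 501 CPM in NGT and 245, 397 and 369 CPM in T1D mice (log2 fold change -0.35 ± 0.29, SE). It was lower in each number, while *Rpl3* itself (chosen after its values were seen) was at 120, 56.1 and 59.5 CPM in NGT and 185, 98.6 and 140 CPM in T1D mice and so was higher in each number. *Rack1* (chosen after its values were seen), a scaffold protein bound to the small subunit and outside the list, was at 224, 242 and 275 CPM in NGT and 321, 332 and 403 CPM in T1D mice.

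The mean log2(CPM + 1) of the list was 7.29, 7.19 and 7.41 in NGT mice 1, 2 and 3 and 7.83, 7.63 and 7.95 in T1D mice. The difference was 0.54, 0.45 and 0.54 within numbers 1, 2 and 3, nearly equal in the mouse that stood apart and in the others. As a share of the raw counts, which no normalization touches, the list took 1.78%, 1.28% and 1.46% in NGT and 2.61%, 1.94% and 2.19% in T1D mice, again without overlap. Between 76 and 77 of the 78 genes were higher under each of the 13 alternative settings, but the number at an unadjusted p-value under 0.05 ranged from 15 (without NGT mouse 2) to 73. It was 17 without T1D mouse 3, 37 without NGT mouse 1 and 46 without T1D mouse 1. Ribosomal protein genes have many processed pseudogenes, so values of single members are uncertain where reads match several copies. Of their deposited counts 32.9% were not whole numbers, against 34.5% over all tested genes. *Rps6*, a small subunit protein (chosen after its values were seen), was listed at only 7.47 to 14.4 CPM, the fewest counts of the 78 genes.

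**Figure D1:**
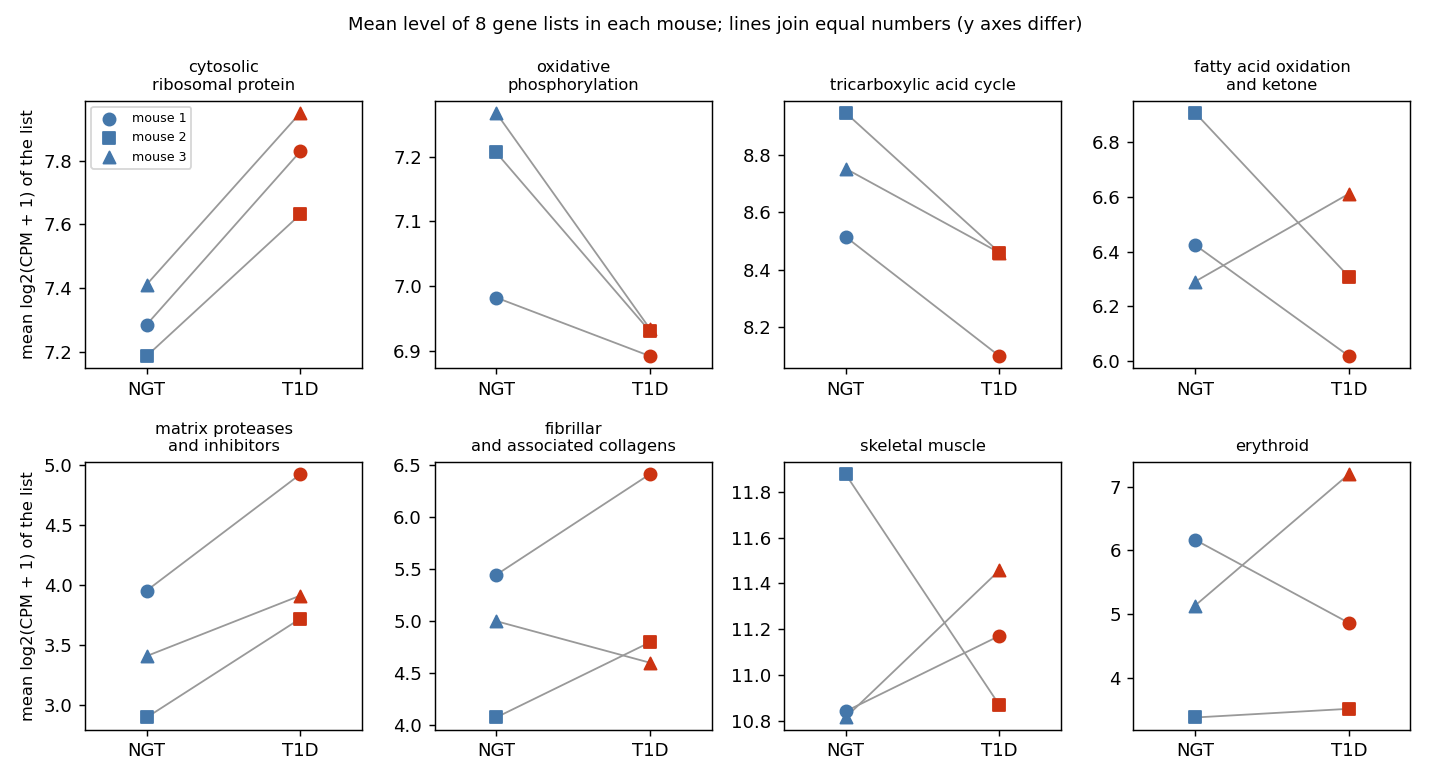
Mean log2(CPM + 1) of 8 gene lists (y axes, which differ between panels) in each NGT (blue) and T1D (red) mouse, with lines joining mice of equal number. The ribosomal protein list was higher by 0.45 to 0.54 in every number and the TCA cycle list was lower in every number, whereas the skeletal muscle and erythroid lists went in different directions in different numbers.

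Other lists of protein synthesis and turnover differed in direction. Of the following 5 lists, 4 were added after seeing the data, and all are given as description. A list of 7 snoRNA host genes and other abundant genes (*Rack1* among them) had a mean log2(CPM + 1) of 7.43, 7.30 and 7.42 in NGT and 7.75, 7.65 and 7.60 in T1D mice, without overlap, and 5 of its 7 genes were higher. Of 20 integrated stress response genes, the list not added later, 16 were higher (14 to 18 under the 13 alternative settings), 0 at an unadjusted p-value under 0.05 in edgeR, and the mean differed by 0.24, 0.09 and 0.68 in numbers 1, 2 and 3. Of 70 translation factors (initiation and elongation factors and related genes), 35 were higher and 35 were lower, with a median log2 fold change of -0.002. Of 38 proteasome subunits, 17 were higher and 21 were lower, with a median of -0.02. Both splits moved with the scaling and with single mice, to 43 of 70 and 28 of 38 genes higher under scaling by library size alone and to 19 of 70 and 10 of 38 without NGT mouse 1. Of 75 mitochondrial ribosomal proteins, which translate the few mRNAs made inside mitochondria, 65 were lower and 10 were higher (53 and 22 under scaling by library size alone), with a median of -0.16 that became -0.05 under that scaling, -0.09 without NGT mouse 3 and -0.27 without NGT mouse 1, and 0 reached an unadjusted p-value under 0.05 in edgeR.

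Genes of mitochondrial energy metabolism were lower in T1D tibia, by a small amount. Of 93 oxidative phosphorylation genes, 82 had a negative log2 fold change, 31 (33.3%) had all T1D values below all NGT values, against 5.08% of all genes, and 0 had the groups separate in the other direction. In all 3 numbers 61 genes (65.6%) were lower, against 19% of all genes. The median log2 fold change was -0.25, beside -0.16 without NGT mouse 3 and -0.16 under scaling by library size alone, and 79 to 88 genes were lower under the 13 alternative settings. Single genes seldom reached significance, since 1 gene was lower at an unadjusted p-value under 0.05 in the 9-library fit, and 29 were lower and 2 higher within equal numbers (5.85% and 8.14% of all genes).

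Across the respiratory chain most genes of the 5 complexes were lower. For complex I, which takes electrons from NADH, 36 of 39 subunits and 7 of 8 assembly factors were lower, with medians of -0.23 and -0.24 on the log2 scale. All 4 genes of complex II (succinate dehydrogenase) and all 9 genes of complex III were lower, with medians of -0.40 and -0.36, and 7 of the 9 complex III genes had groups that did not overlap. For complex IV (cytochrome c oxidase) 10 of 16 genes were lower, and for ATP synthase 16 of 17, with medians of -0.21 and -0.29. *Cox7a1*, the complex IV subunit typical of heart and skeletal muscle, was at 152, 162 and 183 CPM in NGT and 112, 95.9 and 68.7 CPM in T1D mice. Its groups were separate, and the log2 fold change was -0.85 ± 0.30 (SE, unadjusted p = 0.0211 in edgeR). Of the 6 complex IV genes with a positive log2 fold change, 2 were higher in all 3 numbers, *Cox8a* and *Cox6a1*, whose muscle counterparts are encoded by other genes, and the largest value was that of *Cox6b2*, at 1.17 ± 1.35 (SE), which had fewer than 5 CPM in each mouse and mixed directions (all 3 were chosen after their values were seen). *Cox6a1* was at 43.2, 21.2 and 18.6 CPM in NGT and 72.7, 25.6 and 36.1 CPM in T1D mice and *Cox8a* at 55.1, 32.9 and 29.1 CPM against 100.1, 37.3 and 45.1 CPM, so that both were higher in each number. The most counted genes, *Atp5b* and *Atp5a1*, encode the catalytic core of ATP synthase. *Atp5b* was at 2447, 3344 and 3038 CPM in NGT and 1902, 2472 and 2519 CPM in T1D mice, overlapping between groups but lower in each number.

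The TCA cycle (a list added after seeing the data) was lower throughout. All 19 genes had a negative log2 fold change, with a median of -0.42, 17 (89.5%, against 19% of all genes) were lower in all 3 numbers, and 7 (36.8%, against 5.08%) had groups that did not overlap. Between 18 and 19 were lower under each of the 13 alternative settings. None reached an unadjusted p-value under 0.05 in the 9-library fit, whereas 14 did in edgeR within equal numbers, where 5.85% of all genes were lower at this level. *Mdh2*, mitochondrial malate dehydrogenase, was at 617, 829 and 777 CPM in NGT and 461, 554 and 514 CPM in T1D mice, and *Sdhb*, the iron-sulfur subunit of succinate dehydrogenase, was at 362, 468 and 413 CPM against 261, 301 and 290 CPM (both chosen after their values were seen). In both genes every T1D value was below every NGT value. The mean log2(CPM + 1) of the TCA list differed by -0.42, -0.49 and -0.29 in numbers 1, 2 and 3, and that of oxidative phosphorylation by -0.09, -0.28 and -0.33.

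Muscle is rich in these transcripts, and the values of the skeletal muscle list are therefore given beside them. Its share of the counts was lower in the T1D mouse in every number (21.1% against 17.7%, 28.0% against 26.6% and 30.4% against 29.9%), the same direction as the TCA and oxidative phosphorylation lists. Its mean log2(CPM + 1), in which each gene weighs the same, differed by 0.33, -1.01 and 0.64 in numbers 1, 2 and 3 and so was higher in T1D in numbers 1 and 3. Its members split, with 22 of 35 lower and 13 higher, which became 13 lower and 22 higher without NGT mouse 3 and 17 lower and 18 higher under scaling by library size alone. *Myh2*, the myosin of oxidative fast fibres, was at 4148, 5668 and 1363 CPM in NGT and 1407, 1702 and 1060 CPM in T1D mice (log2 fold change -1.42 ± 0.53, SE, unadjusted p = 0.0267 in edgeR), overlapping between groups through NGT mouse 3. *Myh4*, the myosin of glycolytic fast fibres and the most counted gene of most libraries, was at 20692, 44953 and 59079 CPM in NGT and 11153, 42055 and 53140 CPM in T1D mice, a log2 fold change of -0.23 ± 0.68 (SE). *Tnni1*, the slow-fibre troponin I (chosen after its values were seen), was at 75.1, 400.0 and 22.4 CPM in NGT and 684, 41.6 and 234 CPM in T1D mice, lower in the T1D mouse of number 2 and higher in those of numbers 1 and 3. The part of fibre type and muscle content in the mitochondrial differences was not tested.

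**Figure D2:**
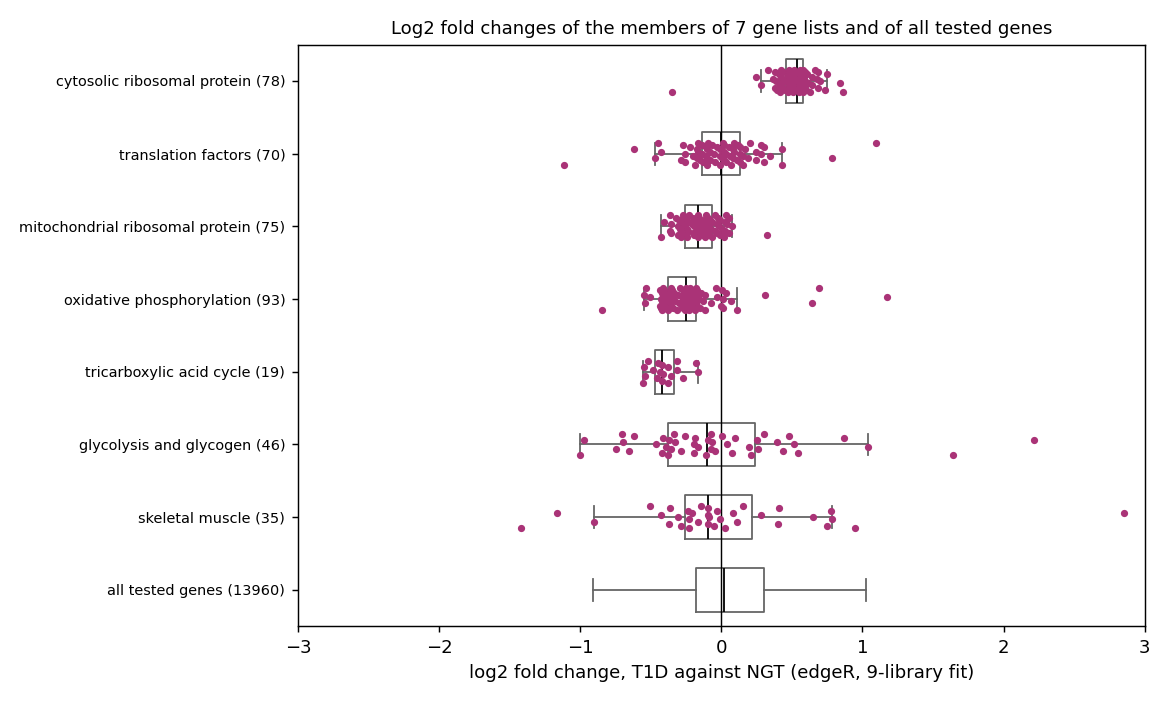
Log2 fold change of T1D against NGT from the 9-library edgeR fit (x axis) for each member of 7 gene lists (points, number of genes in brackets) and for all tested genes, with boxes at the quartiles and the median and whiskers to 1.5 times the box length. The ribosomal protein genes lie around a median of 0.53 and the TCA cycle genes around -0.42, while all tested genes centre on 0.02.

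Fatty acid oxidation and ketone genes were more often lower than higher, with a few large differences. Of 45 tested genes of fatty acid oxidation and ketone metabolism, 32 were lower, 9 (20%, against 5.08% of all genes) had groups that did not overlap with T1D lower and 0 with T1D higher (3.52% of all genes), and 13 (28.9%, against 19%) were lower and 2 higher in all 3 numbers. At an unadjusted p-value under 0.05, 3 were lower in the 9-library fit, where 1.6% of all genes were, and 12 were lower and 2 higher within equal numbers, where 5.85% and 8.14% of all genes were. *Oxct1*, the enzyme that lets tissues outside the liver use ketone bodies, was at 475, 689 and 611 CPM in NGT and 299, 301 and 220 CPM in T1D mice. The groups were far apart, and the log2 fold change was -1.11 ± 0.30 (SE, unadjusted p = 0.00556 in edgeR). *Ppara*, the nuclear receptor that drives fatty acid oxidation genes, was at 33.7, 55.4 and 31.8 CPM in NGT and 15.9, 22.2 and 13.8 CPM in T1D mice, a log2 fold change of -1.22 ± 0.36 (SE). *Ppargc1a*, a coactivator of mitochondrial biogenesis, was at 70.3, 149.8 and 69.3 CPM in NGT and 19.6, 56.1 and 35.2 CPM in T1D mice, a log2 fold change of -1.38 ± 0.51 (SE). In both genes the T1D values lay below all NGT values, and the differences within numbers ran from -1.79 to -0.96 on the log2(CPM + 1) scale. The most counted member, *Pdk4*, a brake on pyruvate oxidation that is induced by fasting, did not follow. It was at 948, 3641 and 1135 CPM in NGT and 297, 1073 and 2254 CPM in T1D mice, lower in numbers 1 and 2 and higher in number 3. The mean of the list differed by -0.41, -0.60 and 0.32 in the 3 numbers, and without NGT mouse 2 the list split into 24 higher and 21 lower genes.

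Among genes of glycolysis and glycogen more were lower than higher in T1D, but the split moved with single mice and with the scaling. Of 46 tested glycolysis and glycogen genes, 28 were lower and 18 higher, 5 (10.9%, against 5.08% of all genes) had groups that did not overlap with T1D lower and 0 with T1D higher, and 19 (41.3%, against 19%) were lower and 5 higher in all 3 numbers. The split became 23 lower and 23 higher without NGT mouse 3 and 24 lower and 22 higher under scaling by library size alone. It was 25 lower and 21 higher without T1D mouse 1, and 31 lower and 15 higher without NGT mouse 1. The mean of the list differed by -0.17, -0.16 and 0.09 in numbers 1, 2 and 3. At an unadjusted p-value under 0.05, 9 were lower and 4 higher within equal numbers, where 5.85% and 8.14% of all genes were, and in the 9-library fit 1 was lower, a share near that of all genes. This gene was *Pfkfb1*, a bifunctional enzyme that sets the level of the glycolytic activator fructose-2,6-bisphosphate, at 54.7, 94.9 and 73.2 CPM in NGT and 29.5, 46.0 and 37.8 CPM in T1D mice (log2 fold change -0.97 ± 0.35, SE). Its difference was nearly the same in each number. *Hk2*, the insulin-responsive hexokinase, and *Gys1*, muscle glycogen synthase (both chosen after their values were seen), were also lower without overlap. *Hk2* was at 230, 340 and 244 CPM in NGT and 178, 211 and 128 CPM in T1D mice. *Gys1* was at 505, 788 and 586 CPM against 402, 459 and 364 CPM. *Slc2a4*, the insulin-regulated glucose transporter GLUT4, was at 533, 813 and 716 CPM in NGT and 423, 536 and 326 CPM in T1D mice, overlapping by the T1D mouse 2 value but lower in each number. The glycolytic enzymes *Aldoa* and *Gapdh*, the most counted of the list, had log2 fold changes of -0.20 ± 0.45 and -0.07 ± 0.42 (SE).

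In insulin and insulin-like growth factor (IGF) signaling, 3 of 40 tested genes (7.5%, against 3.52% of all genes) were higher and 4 (10%, against 5.08%) were lower without overlap between groups. *Igfbp4*, a secreted protein that binds and mostly restrains IGF, was at 71.6, 31.2 and 41.0 CPM in NGT and 169.8, 90.6 and 90.6 CPM in T1D mice. It was higher by 1.23, 1.51 and 1.12 on the log2(CPM + 1) scale in numbers 1, 2 and 3, with a log2 fold change of 1.29 ± 0.38 (SE, unadjusted p = 0.00809 in edgeR). *Grb14*, an adaptor that inhibits the insulin receptor, was at 23.4, 29.4 and 24.4 CPM in NGT and 18.4, 9.43 and 14.4 CPM in T1D mice, a log2 fold change of -0.87 ± 0.30 (SE). *Foxo1*, a transcription factor that insulin keeps out of the nucleus (chosen after its values were seen), was at 80.7, 129 and 104 CPM in NGT and 46.4, 53.5 and 55.7 CPM in T1D mice, below every NGT value. Among 35 genes of muscle atrophy and FoxO targets, 20 were lower (17 without T1D mouse 1 and 19 under scaling by library size alone). Without overlap, 3 (8.57%, against 5.08% of all genes) were lower and 1 (2.86%, against 3.52%) was higher. *Fbxo32*, the muscle ubiquitin ligase atrogin-1 (chosen after its values were seen), was at 739, 1929 and 874 CPM in NGT and 364, 652 and 496 CPM in T1D mice. It lay lower in every T1D mouse than in every NGT mouse.

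The 8 genes with the lowest p-values among those lower without overlap came from several processes. *Vps13a*, a lipid transfer protein at contacts between organelles, was at 37.9, 43.4 and 42.7 CPM in NGT and 23.8, 26.8 and 26.8 CPM in T1D mice. The spread within each group was small beside the difference, and the log2 fold change was -0.68 ± 0.13 (SE, unadjusted p = 0.000543 in edgeR). *Smad3*, a mediator of TGF-beta signaling, which restrains muscle growth and shapes bone, was at 80.5, 94.7 and 139 CPM in NGT and 59.5, 47.9 and 47.2 CPM in T1D mice, a log2 fold change of -1.02 ± 0.25 (SE). *Map2k6*, a kinase that activates p38, was at 18.3, 29.2 and 32.0 CPM in NGT and 12.3, 13.8 and 13.4 CPM in T1D mice, a log2 fold change of -1.01 ± 0.25 (SE). The T1D mice spread less than the NGT mice in both genes. *Mettl21e*, a methyltransferase of skeletal muscle, had the largest difference of the 8, at 9.07, 12.5 and 15.8 CPM in NGT and 5.27, 3.73 and 3.20 CPM in T1D mice (log2 fold change -1.61 ± 0.40, SE). The others were *Mdga1*, *Prickle3*, *Brwd1* and *Kdm6b*, a histone H3K27 demethylase, with log2 fold changes between -0.99 and -0.55.

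Within equal numbers, the genes whose smallest difference was largest, among those lower in all 3 numbers, were *Ppara*, *Ppargc1a*, *Asb15*, *Zbtb16*, *Kcng4* and the unnamed locus *LOC100041599*. *Asb15*, a muscle-enriched member of a ubiquitin ligase adaptor family, was at 132, 219 and 149 CPM in NGT and 63.2, 94.5 and 74.2 CPM in T1D mice. Its difference on the log2(CPM + 1) scale was -1.06, -1.20 and -0.99 in the 3 numbers. *Zbtb16*, a transcription factor induced by glucocorticoids, was at 166, 336 and 262 CPM in NGT and 69.9, 172 and 130 CPM in T1D mice, overlapping between groups, with differences of -1.24, -0.96 and -1.01 on the log2(CPM + 1) scale. Their unadjusted p-values within equal numbers were 0.00018 and 0.00029 in edgeR, with adjusted p-values of 0.232 each. A list of 18 tested glucocorticoid-induced genes did not run the same way as *Zbtb16*. Of these, 13 were higher and 5 lower, 4 (22.2%, against 3.52% of all genes) were higher without overlap and 0 were lower without overlap. The mean of that list differed by 0.01, -0.07 and 0.46 in numbers 1, 2 and 3. *Kcng4*, a modifier subunit of potassium channels, was at 19.9, 13.5 and 38.8 CPM in NGT and 5.54, 6.48 and 11.1 CPM in T1D mice. All its T1D values lay below its NGT values.

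**Figure D3:**
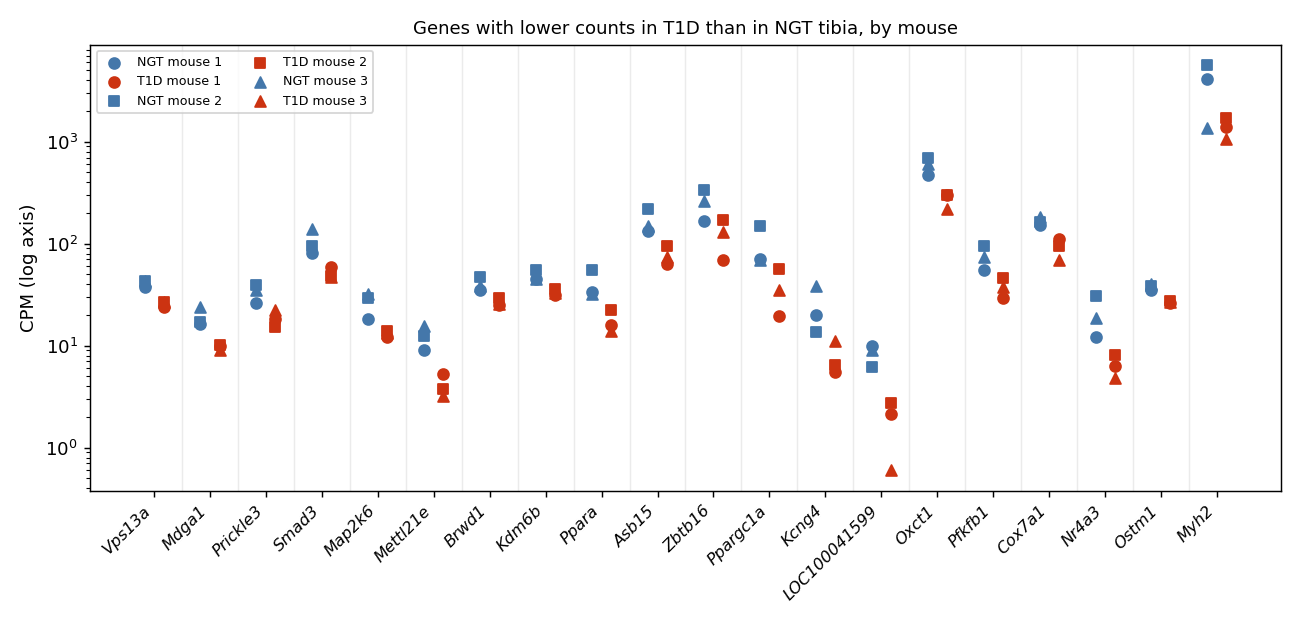
CPM (log axis) of 20 genes with lower counts in T1D, in each NGT (blue) and T1D (red) mouse, with the marker shape giving the mouse number. The groups are separate for all genes shown except *Zbtb16* and *Myh2*, where NGT mouse 1 or 3 lies within the T1D range.

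Most tested matrix genes had higher mean counts in T1D, with large differences among mice of 1 group. Of 35 tested matrix proteases and inhibitors, 29 were higher, 8 at an unadjusted p-value under 0.05 (2.36% of all genes), 7 (20%, against 3.52%) without overlap and 20 (57.1%, against 19.2%) in all 3 numbers, with a median log2 fold change of 0.62. *Mmp14*, a membrane-bound collagenase that activates other proteases, was at 36.05, 16.01 and 23.7 CPM in NGT and 139, 37.6 and 41.9 CPM in T1D mice (log2 fold change 1.53 ± 0.51, SE, unadjusted p = 0.0160 in edgeR). *Mmp13*, the collagenase of osteoblasts and hypertrophic cartilage, was at 22.1, 0 and 11.3 CPM in NGT and 188, 38.7 and 82.8 CPM in T1D mice, where the count of 0 in NGT mouse 2 allows up to 0.232 CPM. *Timp1*, an inhibitor of matrix metalloproteinases, was higher as well, at 2.16, 0.464 and 1.03 CPM in NGT and 44.5, 5.57 and 3.80 CPM in T1D mice. All 3 genes were separate between groups, but the highest value was always that of T1D mouse 1. When T1D mouse 1 was left out, 1 member of the list reached an unadjusted p-value under 0.05, 22 were higher and the median was 0.18, and 2 members did so without NGT mouse 2 or NGT mouse 3.

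The fibrillar and associated collagens were not higher throughout. Among 18 tested genes, no member was under the 0.05 level before adjustment in edgeR and none had groups without overlap, although 16 had a positive log2 fold change with a median of 0.64. *Col1a1*, the main bone collagen chain, was at 719, 89.8 and 739 CPM in NGT and 3208, 333 and 331 CPM in T1D mice, and *Col1a2* was at 508, 94.9 and 442 CPM against 1880, 285 and 263 CPM. Both were higher in T1D in numbers 1 and 2 and lower in number 3. The mean of the list differed by 0.97, 0.72 and -0.40, and without T1D mouse 1 its median was -0.29 and 11 of 18 genes were lower.

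Other matrix lists also depended on T1D mouse 1, while some of their genes were higher in each number. Of 22 genes of collagen processing and crosslinking, 19 were higher and 11 (50%, against 19.2% of all genes) were so in all 3 numbers, but without T1D mouse 1 the count was 7 higher and the median moved from 0.62 to -0.12. Of 31 small leucine-rich proteoglycan and matricellular genes, 25 were higher, and 9 were without T1D mouse 1. *Lox*, which crosslinks collagen, was at 44.9, 16.5 and 20.3 CPM in NGT and 99.7, 58.6 and 29.1 CPM in T1D mice (log2 fold change 1.20 ± 0.51, SE). *Bmp1*, the protease that trims procollagen, was at 28.0, 17.6 and 22.2 CPM against 60.2, 32.9 and 24.9 CPM. The groups overlapped in both, since T1D mouse 3 fell within the NGT range. *Fbln1*, a glycoprotein of elastic fibres, was at 14.2, 7.66 and 7.28 CPM in NGT and 21.9, 15.8 and 15.9 CPM in T1D mice, without overlap. *Tnc*, tenascin C, a matricellular protein of growing and injured tissue (chosen after its values were seen), was at 36.3, 5.57 and 17.7 CPM in NGT and 101, 22.9 and 68.8 CPM in T1D mice. The groups overlapped, but the difference was 1.45, 1.86 and 1.90 on the log2(CPM + 1) scale in numbers 1, 2 and 3, and the p-value within equal numbers was 6.7e-05 in edgeR (adjusted p = 0.232). *Prg4*, lubricin of the joint surface and tendon, had values of 120, 28.6 and 13.9 CPM in NGT and 1329, 218 and 54.2 CPM in T1D mice, higher in each number by 1.89 to 3.45 on the log2(CPM + 1) scale.

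Among 17 basement membrane genes, 11 were lower and 7 (41.2%, against 19% of all genes) were so in all 3 numbers. *Lamb2* and *Lamb1*, alternative beta chains of laminin (both chosen after their values were seen), went in opposite directions. *Lamb2*, the chain of muscle synapses and vessels, was at 159, 185 and 153 CPM in NGT and 117, 135 and 116 CPM in T1D mice. *Lamb1* was at 25.4, 21.6 and 18.0 CPM in NGT and 32.7, 27.4 and 25.5 CPM in T1D mice. *Lamb2* was lower and *Lamb1* was higher in every T1D mouse than in every NGT mouse, although NGT mouse 1 and T1D mouse 3 nearly met for *Lamb1*. Of the 17 genes, 1 (5.88%, against 5.08% of all genes) was lower and 1 (5.88%, against 3.52%) was higher without overlap, shares near those of all genes. Without T1D mouse 3, 8 of the 17 genes were lower.

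**Figure D4:**
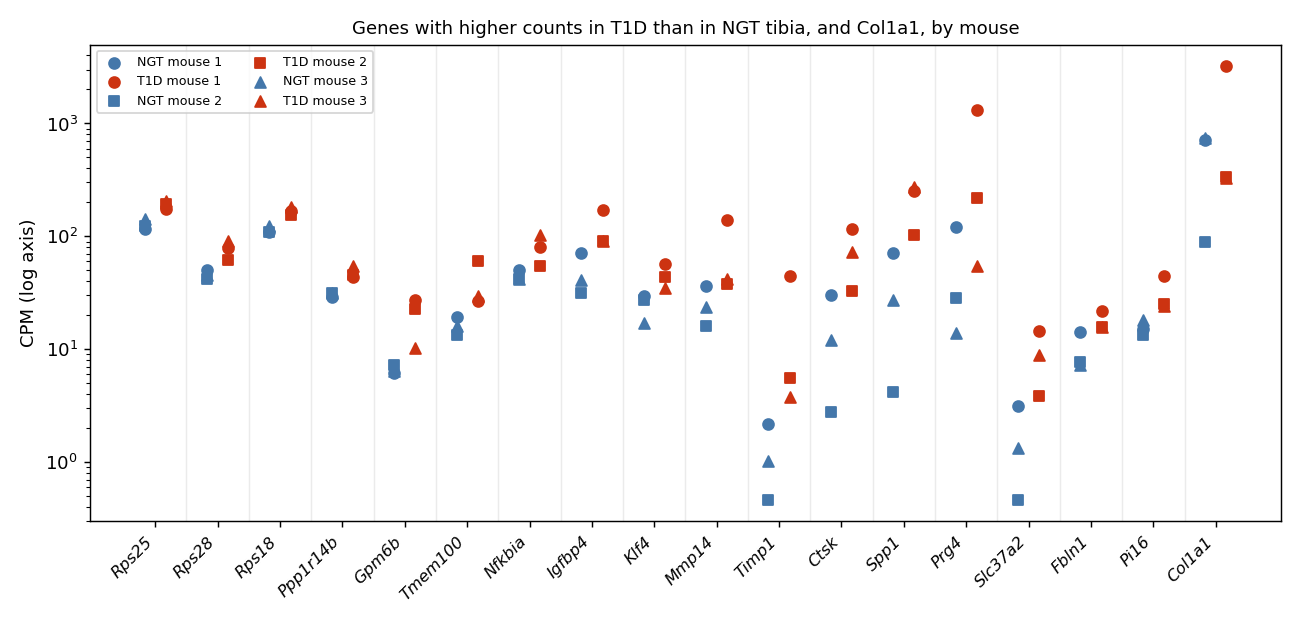
CPM (log axis) of 17 genes with higher counts in T1D and of *Col1a1*, in each NGT (blue) and T1D (red) mouse, with the marker shape giving the mouse number. The groups are separate for all genes shown except *Prg4* and *Col1a1*, and the 3 ribosomal protein genes at the left spread little within a group.

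Several genes of resorbing osteoclasts were higher in each number and varied strongly among mice of 1 group. *Ctsk*, cathepsin K, the main bone-degrading protease, was at 30.4, 2.78 and 11.95 CPM in NGT and 117, 32.7 and 72.9 CPM in T1D mice. *Spp1*, osteopontin, an adhesive bone matrix protein, was at 71.1, 4.18 and 27.4 CPM against 252, 103 and 273 CPM. *Slc37a2*, a sugar-phosphate transporter abundant in macrophages and osteoclasts, was at 3.17, 0.464 and 1.35 CPM against 14.5, 3.86 and 8.80 CPM. The groups were separate in all 3 genes, but NGT mouse 2 was the lowest in each and T1D mouse 2 lay nearest to the NGT mice. Of 21 tested genes of the resorption machinery, 16 were higher (13 without T1D mouse 1) and 10 (47.6%, against 19.2% of all genes) were so in all 3 numbers. *Ostm1*, a partner of the acid chloride exchanger of the resorbing membrane, was lower, at 35.3, 38.7 and 40.3 CPM in NGT and 26.5, 27.3 and 26.6 CPM in T1D mice (log2 fold change -0.51 ± 0.14, SE, unadjusted p = 0.00651 in edgeR). Among the genes also measured by RT-qPCR, *Nfatc1*, the master regulator of osteoclasts, was at 66.4, 80.0 and 66.4 CPM in NGT and 63.4, 63.2 and 73.5 CPM in T1D mice, with overlap and a log2 fold change of -0.09 ± 0.17 (SE). *Acp5*, the osteoclast phosphatase TRAP, was at 35.3, 3.02 and 12.6 CPM against 109.7, 26.9 and 89.2 CPM, and *Trem2*, a receptor of myeloid cells, at 1.396, 0.155 and 0.475 CPM against 22.2, 1.31 and 0.867 CPM, both with overlap but higher in each number. *Fos*, a transcription factor needed for osteoclasts, was at 5.84, 6.88 and 3.48 CPM against 19.0, 10.4 and 6.74 CPM, also with overlap. *Tnfrsf11b*, the RANKL decoy receptor osteoprotegerin, and *Tnf* stood below 7 CPM in all 6 mice, *Tnfrsf11b* with mixed directions and *Tnf* higher in numbers 1 and 3 and at 0 in both mice of number 2, and *Tnfsf11*, which encodes RANKL, was below the count minimum. By RT-qPCR the paper reported *Nfatc1*, TRAP, *Ctsk* and *Trem2* as significantly higher in T1D than in NGT tibia. For *Fos*, *Tnf* and the ratio of RANKL to osteoprotegerin it reported no significant difference.

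Immune lists differed in how far they rested on T1D mouse 1. All 32 tested interferon-gamma and antigen presentation genes had a positive log2 fold change and 13 reached an unadjusted p-value under 0.05 (2.36% of all genes), yet 0 had groups without overlap. The mean of the list differed by 2.82, 0.50 and 0.28 in numbers 1, 2 and 3, and without T1D mouse 1 the counts were 21 higher, 11 lower and 0 at an unadjusted p-value under 0.05 in edgeR. Without NGT mouse 2 or NGT mouse 3 it was 1 gene, and without T1D mouse 2 or T1D mouse 3 it was 23 or 25 genes. *Iigp1*, an interferon-induced GTPase, was at 12.1, 9.20 and 9.02 CPM in NGT and 443, 15.3 and 9.67 CPM in T1D mice, and its unadjusted p of 0.0153 in edgeR became 0.154 with the block. Of 26 macrophage markers, 21 (80.8%, against 19.2% of all genes) were higher in all 3 numbers, with mean differences of 1.23, 0.81 and 0.84. At an unadjusted p-value under 0.05 there were 8 in the 9-library fit (2.36% of all genes), 19 within equal numbers (8.14%), 16 without NGT mouse 1, where 630 of all genes were higher at this level, and 0 without T1D mouse 1, NGT mouse 2 or NGT mouse 3, and the median of 1.14 became 0.41 without T1D mouse 1 and 2.34 without NGT mouse 1. Among other immune lists, 30 of 30 type I interferon, 45 of 53 TNF and NF-kB, 22 of 27 complement, 16 of 19 chemokine and 19 of 20 T and NK cell genes were higher, and without T1D mouse 1 these counts were 18, 30, 16, 13 and 11. The mean of the T and NK cell list differed by 0.48, 0.40 and 0.43 in numbers 1, 2 and 3. Its levels were low and overlapped between groups, at a mean log2(CPM + 1) of 1.41, 0.48 and 0.72 in NGT and 1.88, 0.88 and 1.15 in T1D mice. Of its 20 genes, 11 (55%, against 19.2% of all genes) were higher in all 3 numbers. At an unadjusted p-value under 0.05 in edgeR there were 0 in the 9-library fit and 1 within equal numbers. *Nfkbia*, the NF-kB inhibitor that NF-kB itself induces, was at 50.5, 41.6 and 42.2 CPM in NGT and 81.1, 54.7 and 102 CPM in T1D mice, separate between groups. Erythroid and neutrophil genes went in different directions in different numbers, by -1.31, 0.14 and 2.06 and by -0.79, 1.28 and 1.41, so transcripts of these marrow cells varied among mice of 1 group. Their part in the differences above was not tested.

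Nerve and early response genes were also higher. Of 27 Schwann cell and myelin genes, 26 had a positive log2 fold change, 16 (59.3%, against 19.2% of all genes) were higher in all 3 numbers and 17 reached an unadjusted p-value under 0.05 within equal numbers (8.14% of all genes), beside 4 in the 9-library fit. *Gpm6b*, a myelin-related membrane protein found in glia and bone cells, was at 6.16, 7.19 and 6.41 CPM in NGT and 27.3, 22.6 and 10.3 CPM in T1D mice (log2 fold change 1.61 ± 0.33, SE, unadjusted p = 0.00105 in edgeR). *Pmp22*, a compact myelin protein, was at 41.1, 65.5 and 19.9 CPM in NGT and 86.3, 250.4 and 46.0 CPM in T1D mice, highest in mouse 2 of each group. Without T1D mouse 2 the list split into 13 higher and 14 lower genes with a median of -0.10, and the 4 genes at an unadjusted p-value under 0.05 became 1 without T1D mouse 2 or NGT mouse 3, 2 without NGT mouse 1, 6 or 7 without T1D mouse 3 or 1, and 15 without NGT mouse 2. Of 24 immediate-early genes, 21 were higher and 8 (33.3%, against 3.52% of all genes) were so without overlap, among them *Klf4*, at 29.5, 27.2 and 16.9 CPM in NGT and 56.7, 43.3 and 34.7 CPM in T1D mice. *Nr4a3*, an orphan nuclear receptor induced by muscle activity, ran the other way at 12.1, 30.8 and 18.5 CPM in NGT and 6.25, 8.18 and 4.87 CPM in T1D mice (log2 fold change -1.67 ± 0.54, SE).

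A pair of further genes was higher without overlap between groups. *Ppp1r14b*, an inhibitor of protein phosphatase 1, was at 28.9, 31.2 and 31.6 CPM in NGT and 43.9, 45.6 and 54.7 CPM in T1D mice (log2 fold change 0.65 ± 0.14, SE, unadjusted p = 0.00154 in edgeR). *Tmem100*, a membrane protein of endothelium and nerve, was at 19.5, 13.3 and 16.1 CPM in NGT and 27.0, 60.6 and 29.5 CPM in T1D mice. T1D mouse 2 stood well above the other T1D mice. Lipid synthesis and adipocyte genes had no common direction, with mean differences of 0.18, -0.52 and 0.46 in the 3 numbers, 28 of 44 genes higher and 0 separate between groups, and without T1D mouse 1 only 9 were higher (17 without NGT mouse 3).

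**Figure D5:**
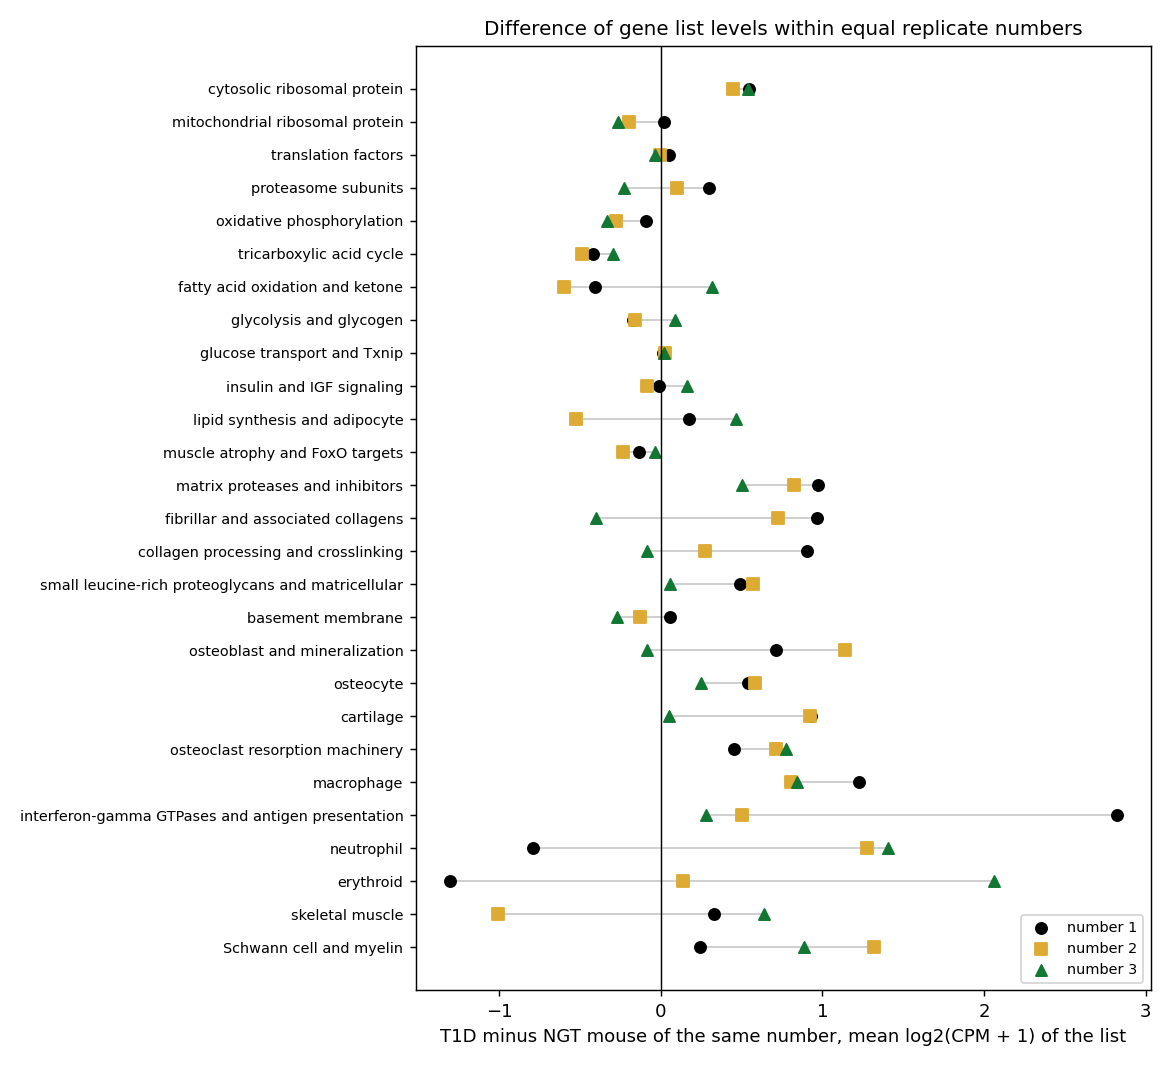
Difference between the T1D and the NGT mouse of equal number in the mean log2(CPM + 1) of 27 gene lists (x axis), with 1 marker for each number and a grey line over their range. The 3 markers of the ribosomal protein list lie together at 0.45 to 0.54 and those of the TCA cycle list at -0.49 to -0.29, whereas the interferon-gamma, erythroid, neutrophil and skeletal muscle lists spread over more than 1.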

How the data were processed

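Gene expression was measured by RNA-seq of tibia in 9 mice, of which the 3 NGT and the 3 T1D libraries were compared. The authors extracted RNA with TRIzol, captured polyadenylated RNA on oligo(dT) beads and sequenced DNA nanospheres. Expected counts per gene were deposited by the authors, who aligned reads to the genome build mm9 per the submitters' processing notes, and the aligner and counter are not given in the sources used here. FPKM values were also deposited by the authors beside the counts, and no result here uses them. Of the counts, 30.2% were not whole, and all were rounded.

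A gene was tested where 3 or more of the 9 libraries held 10 or more counts (13960 genes). Counts were scaled by TMM and fitted with 3 group means over 9 libraries by the quasi-likelihood test of edgeR 4.0.16 in R 4.3.3, and p-values were adjusted over all tested genes by the Benjamini-Hochberg method. A second fit used the 6 libraries with the replicate number as a block. The block was used because deviations from the group means correlated in mice of equal number (r = 0.583, 0.647 and 0.283 across genes for numbers 1, 2 and 3). In mice of unlike number the values were -0.697 to 0.0668. Deviations from a group mean cancel out within the group, so these values are not independent of those for equal numbers. The correlations come from the same counts as the tests and cannot show that the mice were paired. DESeq2 1.42.0, library-size scaling, 2 other filters, the 6 libraries alone, the block and leaving out each mouse were alternatives. The smallest p-value that an exact permutation of 3 against 3 mice allows is 0.1, so none is given. SE values are derived from the fold change and its F statistic, and a list's level is the mean log2(CPM + 1) of its tested members. The fits were tested on simulated data.

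The comparison and 42 gene lists were chosen with earlier results of these data known, and 7 further lists (among them the TCA cycle, mitochondrial ribosomal proteins, translation factors and proteasome subunits) were written after the values were seen. Named genes were those with the lowest p-values among genes of at least 5 CPM whose groups did not overlap (8 in each direction), those of at least 5 CPM with the same direction in all 3 numbers and the largest smallest difference (6 in each direction), in each list the 2 most counted and up to 2 in each direction at an unadjusted p-value under 0.05, and the genes of the study's RT-qPCR. Not all genes the rule gives are printed (1 item is not reported here), and those outside it are marked. Symbols matched RefSeq genes for 97.3% of the file, and coordinates are those of GRCm38.p6, not of the authors' build. Differential calls of the authors were not used.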

Additional observations from a re-analysis of the deposited data

How the results depend on the processing

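Differentially expressed genes numbered 0 in the 9-library fit under each alternative. The 552 genes at an unadjusted p-value under 0.05 (329 higher, 223 lower) became 1952 (1136 and 816) with the replicate block on the 6 libraries. Leaving out 1 mouse gave 225 (without NGT mouse 2) to 1021 (without NGT mouse 1), with 133 (without NGT mouse 3) to 630 higher and 75 to 391 lower. Library-size scaling moved the median log2 fold change of all genes from 0.02 to 0.09 and the split from 329 higher and 223 lower to 237 and 238. Within equal numbers, the 1952 genes became 557 (277 higher, 280 lower) with no block and 752 (424 and 328) with the block over 9 libraries, and leaving out a number, which leaves 2 pairs, gave 1163 to 2143 genes, 799 to 1421 of them higher and 364 to 722 lower, with 0 to 7 differentially expressed genes. With the replicate block, calls at the unadjusted level changed in both directions (*Iigp1* lost and *Foxo1* gained a p-value under 0.05 in edgeR), and no call of a differentially expressed gene changed.

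Log2 fold changes of 12 printed genes changed sign when 1 mouse was left out. They ranged from -0.43 to 0.034 for *Aldoa*, from -0.63 to 1.78 for *Col1a1*, from -0.35 to 1.64 for *Col1a2*, from -0.61 to 2.37 for *Cox6b2*, from -0.38 to 0.15 for *Gapdh* (0.000475 under library-size scaling), from -0.64 to 0.20 for *Myh4*, from -0.16 to 0.0059 for *Nfatc1*, from -1.48 to 0.21 for *Pdk4*, from -0.068 to 0.43 for *Rps6*, from -1.52 to 3.46 for *Tnf*, from -1.31 to 1.55 for *Tnfrsf11b* (0.11 and 0.0501 with the replicate block over 9 and 6 libraries) and from -0.27 to 2.71 for *Tnni1*. The cause was not tested. The log2 fold changes of the other printed genes kept their sign under each alternative run.

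With 3 mice a group, and T1D mouse 1 apart from the rest, no gene passed the adjusted test in edgeR, which does not show that levels were equal. Counts near the floor in single mice limit *Mmp13*, *Timp1*, *Trem2* and *Tnf*.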
